A study of Drosophila melanogaster with 2 samples.

Results

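The genes described here encode core subunits of the spliceosome of Drosophila melanogaster, the machine that cuts introns out of pre-mRNA. They were chosen by name: 37 genes of the Sm and LSm rings, of U1, U2AF and U2, of the U4/U6.U5 tri-snRNP, of the Prp19 complex and of the factors that act in the catalytic steps. All 37 were found among the 17807 genes of the deposited table. No measured value entered the choice, although earlier results of these data were known when the list was drawn up. RNA-seq was available for 2 libraries of Kc167 cells, a Drosophila line of embryonic origin with blood cell features, grown at 25 °C and exposed to 2% DMSO for 1 h as the control of a larger study of TFIID. Both libraries, replicates 1 and 2, have the same condition. No treated sample was analysed here, so the values below are levels in control cells of a single line and carry no test between conditions. The labels do not say whether the replicates came from separate cultures, and the SD between them may be technical.

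An intron is removed by small nuclear RNAs, each bound by proteins into a particle called an snRNP. U1 pairs with the 5′ splice site, U2AF reads the end of the intron and brings in U2, which pairs with the branch point. The U4/U6.U5 tri-snRNP then joins, helicases unwind U4 from U6, and the Prp19 complex enters as the catalytic core forms. U1, U2, U4 and U5 each carry a ring of Sm proteins, and U6 carries a related ring of LSm proteins. The snRNAs are not measured by these poly(A)-selected libraries. Only the mRNAs of the proteins are, and an mRNA level says nothing about how much protein is in a particle.

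Replicate 1 had 33436865 read pairs counted on genes and replicate 2 had 31721648. The 37 genes together took 0.376% of these counts in replicate 1 and 0.379% in replicate 2. Counts per gene ran from 548 (Prp18) to 17971 (Prp8) in replicate 1 and from 518 to 17413, at the same genes, in replicate 2, so counting error was small for every gene. All 10 listed blood cell markers were detected, at a summed 839 and 851 TPM in replicates 1 and 2. They ranged from 2.42 TPM (NimC1) to 263 TPM (Col4a1), and NimC1, Sr-CI (2.89 TPM) and eater (3.45 TPM) lay below the germline gene vas (5.73 TPM). Lists of 2 or 3 markers for each of neuron, muscle, testis and ovary germline summed to at most 6.08 TPM in either library. The 2 germline markers, osk and vas, share 78.5% and 24.6% of their exonic bases with genes on the same strand. Read pairs there are counted on no gene, so these 2 levels may be too low.

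All 37 genes were detected, with at least 10 strand-matched counts in each library. Of all 17807 genes in the table, 49.7% had at least 10. Levels are given in TPM, the count per base of gene scaled to a fixed total, here computed with each exonic base of a gene counted once. On this scale the median over the 37 genes was 100.3 TPM in replicate 1 and 100.1 in replicate 2. Ranked by mean level, the middle gene was LSm3 at 99.8 TPM, against a median of 37.8 TPM over the 8263 expressed protein-coding genes. The quartiles of the spliceosome genes were 59.0 and 142 TPM, and those of the expressed genes 11.4 and 82.0 TPM. Of the 37, 33 lay above the median of expressed genes, 21 lay in the top 25.0% and 8 in the top 10%, shares that hold over all expressed genes by construction. The 4 genes at or below that median were crn, Prp40, Prp22 and Prp18.

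**Figure D1:**
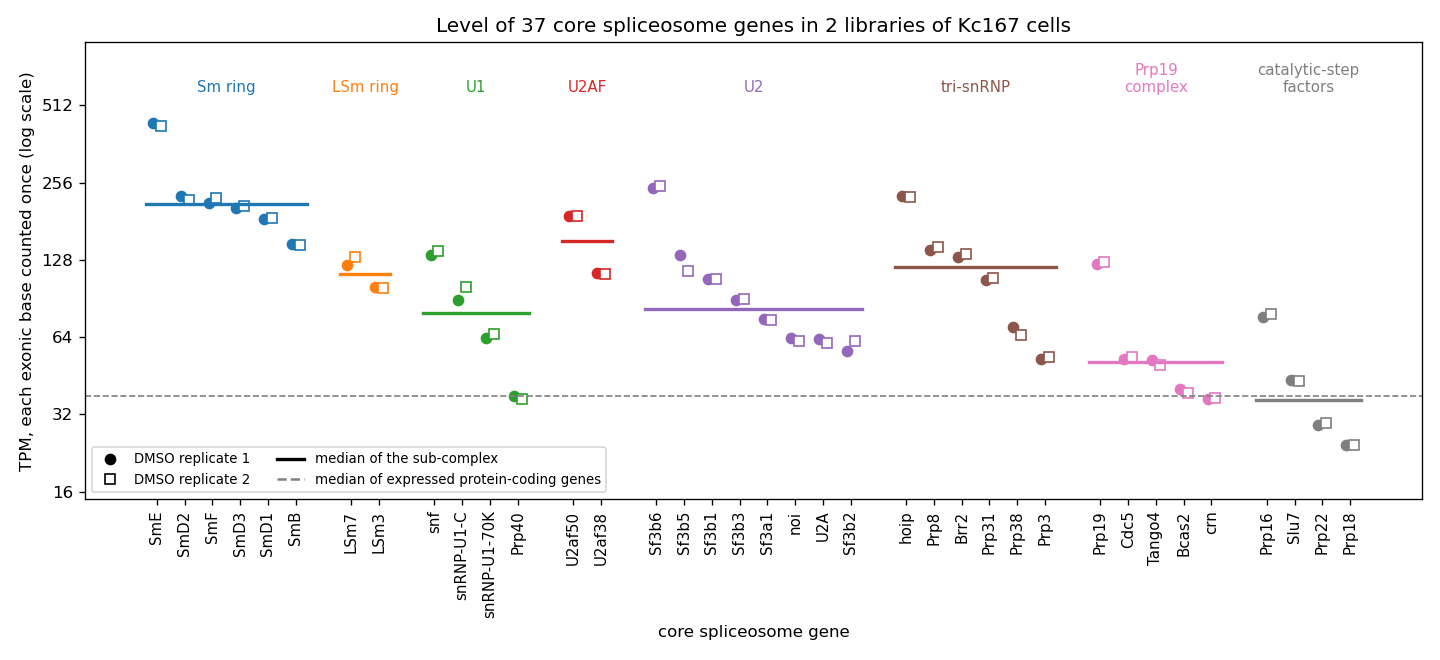
TPM (log axis) of each core spliceosome gene in DMSO replicate 1 (filled circles) and replicate 2 (open squares), grouped by sub-complex, with the median of each sub-complex (solid lines) and of the 8263 expressed protein-coding genes (dashed line, 37.8 TPM). By median the Sm genes sit highest, with values between 146 and 435 TPM, and the catalytic-step factors lowest, with values between 24.3 and 79.0 TPM; single genes of other groups reach into both ranges.

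The Sm genes had the highest median of the 8 sub-complexes, although Sf3b6 (246 TPM) and hoip (225 TPM) had higher mean levels than all of them but SmE. The ring closes around a uridine-rich site of the snRNA, and each of its subunits is present in equal number. SmE had 435 TPM in replicate 1 and 425 in replicate 2, the highest level of all 37 genes in both libraries. SmD2 followed with 226 and 219.6 TPM, and SmF had 214 and 222 TPM. These 2 genes changed order between the libraries. SmD3 had 203 and 208 TPM and SmD1 had 185 and 187 TPM. SmD1 and SmD3 end in arginine-glycine tails that are methylated before the ring is assembled. SmB, which has a proline-rich tail, was lowest in both libraries with 147 and 146 TPM. SmE was 2.93 times SmB, so mRNAs of proteins used in equal number spanned a 2.93-fold range, well outside the spread of the replicates (429.9 ± 7.22 against 147 ± 0.589 TPM, mean ± SD, n = 2). That spread does not cover errors in the gene length used, which repeat in both libraries.

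The LSm genes on the list encode 2 subunits of the ring that binds the 3′ end of U6 RNA. LSm7 had 122 TPM in replicate 1 and 131 in replicate 2, and LSm3 had 100.3 and 99.2 TPM. Both lay below every Sm gene. The level of LSm3 depends on how shared sequence is treated, since 29.1% of its exonic bases are also exonic bases of CG33108, a gene on the same strand. In STAR's gene counts, which the authors used, a read pair that falls on exons of more than 1 gene is counted on none. In a calculation added after the data were seen, dividing the counts of LSm3 only by the 456 of its exonic bases that no same-strand gene shares gave 141 and 139 TPM, which placed it above LSm7 (126 ± 6.31 TPM in the same calculation).

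In U1, levels were highest at snf and lowest at Prp40. The fly protein snf does the work that mammals divide between a protein of the U1 particle and a protein of the U2 particle, and its gene had 134 TPM in replicate 1 and 138 in replicate 2. The gene of snRNP-U1-C, which steadies the pairing of U1 with the 5′ splice site, had 89.4 and 100.1 TPM. The gene of snRNP-U1-70K, which binds the first stem-loop of U1 RNA, had 63.4 and 66.1 TPM. These 3 genes kept their order in both libraries. Prp40, a U1-associated protein known from yeast to reach towards the branch point factors, had 37.9 and 36.9 TPM. U2A, the partner of snf in the U2 particle, had 63.1 and 60.8 TPM. The level of snf was 2.20 times that of U2A, and whether this relates to snf serving both particles was not tested.

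Both subunits of U2AF were in the top 25.0% of expressed genes. U2af50, the large subunit, which reads the polypyrimidine tract, had 190.1 TPM in replicate 1 and 189 in replicate 2. U2af38, the small subunit, which reads the AG at the end of the intron, had 114 and 113 TPM. The 2 proteins form a pair, and the level of the large subunit's mRNA was 1.67 times that of the small. With deposited TPM the order turned, to 85.6 TPM for U2af50 and 101 TPM for U2af38.

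The U2 genes spread over a 4.16-fold range. At the top, Sf3b6 (p14, which lies close to the branch point) had 243 TPM in replicate 1 and 248 in replicate 2. Sf3b5, another small SF3B subunit, had 134 and 116 TPM, the widest spread of the group. Sf3b1, the large scaffold that closes around the branch point helix, had 108 TPM in each library. Sf3b3, a large SF3B subunit, had 89.4 and 90.1 TPM by all its exonic bases. In the SF3A part of U2, Sf3a1 had 75.5 and 74.6 TPM and noi (the SF3A3 homolog) had 63.5 and 61.6 TPM. Sf3b2 was lowest with 56.5 and 61.6 TPM, and its libraries overlapped those of U2A, which in turn overlapped those of noi. Neighbours among these 3 genes could not be ranked beyond the spread of the replicates.

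Of the 37 genes, Sf3b3 shares the largest part of its exonic bases with another gene on its strand (57.9%), and its level depends on how that part is treated. Its gene lies on chromosome 3L at 826720 to 833385 (minus strand, dm6), and those bases are also annotated as exons of a non-coding RNA on the same strand, lncRNA:CR45184 (3L, 826720 to 830190). That RNA had 0 counts in both libraries, and 97.4% of its own exonic bases are shared. The 6692 and 6366 counts of Sf3b3 were therefore collected from the other 1821 bases, apart from pairs that reach past a shared stretch. Divided by those bases alone, its level was 211 and 213 TPM, in place of 89.4 and 90.1. In that calculation Sf3b3 stood above Sf3b1 (108 ± 0.0343 TPM) and below Sf3b6 (244 ± 3.92 TPM), and the median of the U2 genes moved from 82.4 to 91.1 TPM. LSm3 and Sf3b3 were the 2 genes of the 37 with any same-strand overlap.

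**Figure D2:**
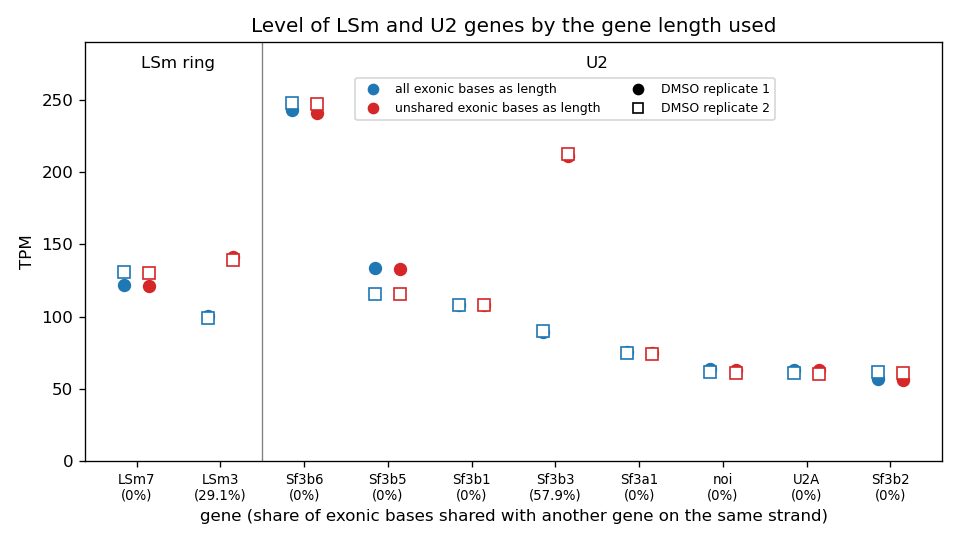
TPM (linear axis) of the LSm and U2 genes with all exonic bases as the gene length (blue) and with only the bases no same-strand gene shares (red), for DMSO replicate 1 (filled circles) and replicate 2 (open squares); the shared percent of exonic bases stands under each name. Sf3b3 moves from 89.8 to 212 TPM and LSm3 from 99.8 to 139.8 TPM, while the other 8 genes keep nearly the same values (Sf3b6, for example, 246 and 244 TPM).

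In the tri-snRNP, the small protein hoip was highest with 227 TPM in replicate 1 and 224 in replicate 2. It is the homolog of yeast Snu13, which binds a kink-turn of U4 RNA and is shared with box C/D snoRNPs. Prp8, the U5 scaffold that holds the active site, had 139.7 and 143 TPM, and Brr2, the U5 helicase that unwinds U4 from U6, had 131 and 135 TPM. Prp8 was at 1.06 times Brr2. The mRNAs of these 2 large U5 proteins were thus at similar levels, although their libraries did not overlap. Prp31, a U4 protein, had 107 and 109 TPM. Prp38, which acts when the complex is activated, had 70.0 and 65.2 TPM. Prp3, which binds U4/U6, was lowest of the 6 with 52.5 and 53.5 TPM.

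The Prp19 complex, which stabilises U5 and U6 on the pre-mRNA after U4 leaves, has 5 genes on the list. Of these, only Prp19 was in the top 25.0% of expressed genes. Bx42 (101 TPM) and Bud31 (113 TPM), genes of the complex outside the list, lay there too, while the others looked up did not. Prp19, a ubiquitin ligase that is known from yeast to form a tetramer, had 123 TPM in replicate 1 and 126 in replicate 2. Cdc5, its Myb-like core partner, had 52.7 and 53.7 TPM, and Tango4 (the Plrg1 homolog) had 52.3 and 49.8 TPM. Bcas2 (the Spf27 homolog, listed as BCAS2) had 40.3 and 38.7 TPM. The gene of crooked neck, crn, was lowest with 36.9 and 37.1 TPM. Prp19 was at 3.15 times Bcas2, beyond the spread of the replicates, which again does not cover errors in the gene length used.

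The catalytic-step factors had the lowest median. Prp16, the helicase that remodels the active site before the second step, stood apart with 76.7 TPM in replicate 1 and 79.0 in replicate 2. Slu7, a factor of the second step, had 43.6 and 43.3 TPM. Prp22 (listed under its fly name pea), the helicase that releases the finished mRNA, had 29.0 and 29.7 TPM. Prp18, which works with Slu7, had 24.3 TPM in both libraries and was the lowest of all 37 genes. The 4 genes did not overlap between any pair, and Prp16 was at 3.20 times Prp18.

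By median level the sub-complexes ran from the Sm ring (211 ± 3.82 TPM) through U2AF (152 ± 0.782), the tri-snRNP (121 ± 1.59) and the LSm genes (113 ± 2.79) to U2 (82.4 ± 0.0812) and U1 (79.8 ± 4.72), and then to the Prp19 complex (51.1 ± 1.74) and the catalytic-step factors (36.4 ± 0.176; mean ± SD of the medians in 2 libraries). These medians cover only the genes on the list, from 2 (LSm, U2AF) to 8 (U2) in a sub-complex, so the order depends on which were listed. Tri-snRNP genes looked up outside the list ran from 22.0 TPM (Txnl4a) to 114 TPM (Sart1), all below the median of 121 TPM. The SD is between libraries and covers neither the spread of genes within a sub-complex nor the choice of genes. U1 and U2 changed places between the libraries and could not be ranked on this scale. With the unshared length U2 (91.3 and 90.9 TPM) lay above U1 (75.9 and 82.6 TPM) in both libraries. Deposited TPM gave the other order in both, with 98.8 and 96.2 TPM for U2 and 100.4 and 111 TPM for U1. With the unshared length the LSm genes (133 TPM) also passed the tri-snRNP (119.8 TPM) in both libraries. The Sm median was 4.15 times that of the Prp19 complex and 5.81 times that of the catalytic-step factors. Gene by gene, the order was nearly the same in both libraries (Spearman's rho = 0.995 across the 37 genes, a description since the genes share their libraries). Of the 36 pairs of neighbours in that order, 14 overlapped between the libraries, and these do not differ beyond their spread. From SmE to Prp18 the levels spanned 17.7-fold.

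The TPM that the authors deposited gives another picture of some sub-complexes. Their gene length adds up all annotated transcripts, so a base used by several transcripts counts several times. For the 25 spliceosome genes with a deposited length equal to the exonic length, the deposited TPM was higher than the recalculated TPM by 0.65 on the log2 scale, the shift that rescaling gives every such gene. For the 12 with a longer deposited length, the difference had a median of −0.31 and ran from −1.15 to 0.13. U2af50, whose 4 transcripts make its deposited length 3.47 times the exonic length, had 85.5 and 85.6 TPM in the deposited table and was 23rd of 37, in place of the 7th. LSm7 moved from rank 13 to rank 25 and hoip from rank 3 to rank 13. With deposited values the sub-complex medians were 331 TPM for the Sm genes, 176 for the tri-snRNP, 106 for U1, 97.5 for U2, 93.3 for U2AF, 86.3 for the LSm genes, 61.9 for the Prp19 complex and 57.1 for the catalytic-step factors. The Sm genes stayed first and the last 2 groups stayed last, while U2AF moved from the second place to the fifth. Order within sub-complexes also turned: with deposited TPM hoip (182 TPM) lay below Prp8 (222 TPM), and Cdc5, second of its complex above, was the lowest of the 5.

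**Figure D3:**
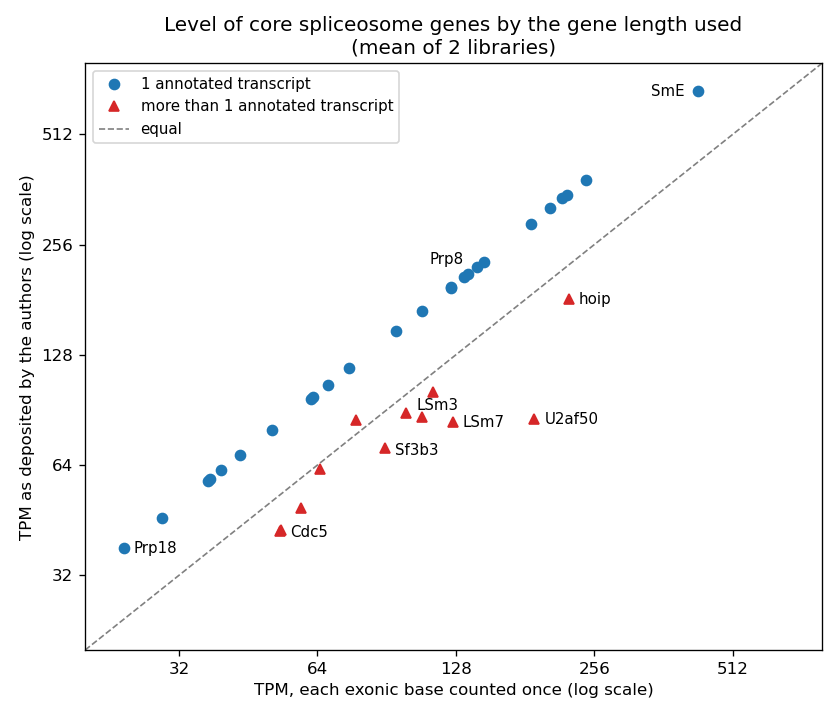
Mean TPM of each core spliceosome gene as deposited (vertical, log axis) against TPM with each exonic base counted once (horizontal, log axis), for genes with 1 annotated transcript (blue circles, 25 genes) and with more (red triangles, 12 genes). The genes with 1 transcript lie on a line 0.65 log2 units above equality, and U2af50 lies farthest below it, at 85.6 against 189.6 TPM.

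Short genes of the list had higher levels per base than long ones. The 13 genes with a coding length under 700 bases, which are the 6 Sm and 2 LSm genes with hoip, snf, snRNP-U1-C, Sf3b5 and Sf3b6, had a median of 186 TPM and ran from 94.8 to 429.9 TPM. The 24 longer genes had a median of 63.6 TPM and ran from 24.3 (Prp18) to 189.6 TPM (U2af50). Over the 37 genes, Spearman's rho of level and coding length was −0.531, and over all 8263 expressed protein-coding genes it was −0.148. In both sets short genes were also higher by median, with 55.4 TPM for 1550 expressed genes under 700 bases and 35.5 TPM for the 6713 others. The points share their libraries, and the length also enters TPM as its divisor, so this is a description. Without division by length, in CPM (counts scaled to the library total), rho was 0.440. Prp8 and Brr2, the longest coding sequences of the list at 7188 and 6426 bases, had levels near those of snf and SmB while lying at the other end of the length range.

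**Figure D4:**
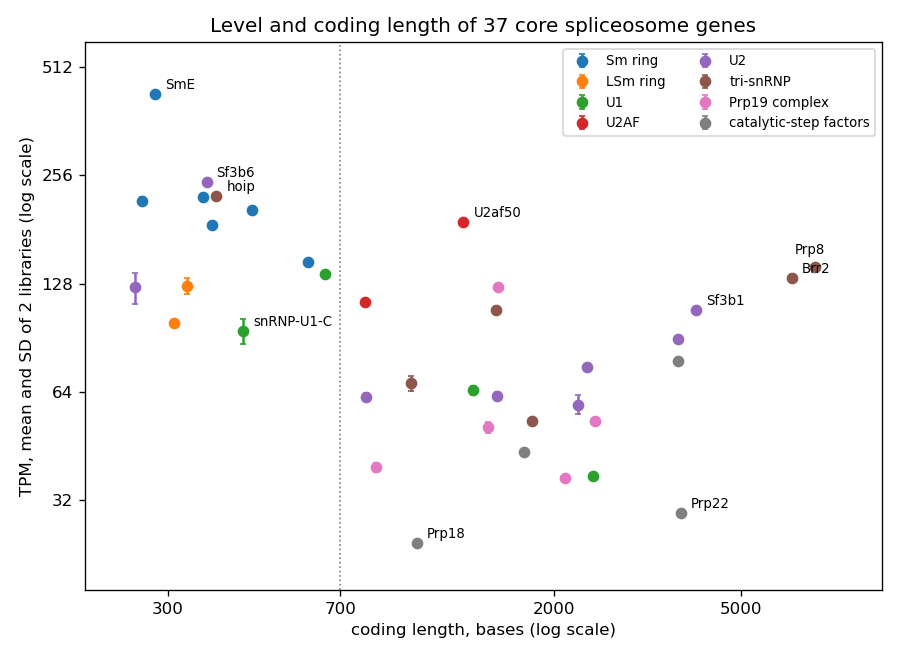
Mean TPM of each core spliceosome gene with the SD of the 2 libraries (vertical, log axis) against its coding length in bases (horizontal, log axis), coloured by sub-complex; the dotted line is at 700 bases. The 13 genes left of the line all lie at or above 94.8 TPM, and right of it Prp8 (142 TPM) and Brr2 (133 TPM) lie at the far end of the length axis.

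The libraries were strand-specific, so reads on the strand opposite a gene could be counted apart. Whether they came from transcription of that strand or from imperfect strand marking was not tested. The median opposite-strand share was 1.30% over the 37 genes and 1.46% over expressed protein-coding genes. Over 5% was reached by 7 of the 37 genes, and by 21.6% of the expressed genes. The highest shares were those of Prp18 (20.4%), Prp31 (18.6%), Prp38 (13.9%) and U2af38 (12.3%), followed by LSm7 (9.99%), noi (7.22%) and Sf3b2 (6.31%). In 6 of these 7 genes, Prp38 being the exception, exons overlap those of a gene on the other strand that is transcribed towards them, P5cr for Prp18, CG7011 for Prp31, CG11562 for U2af38, ChLD3 for LSm7, PolZ2 for noi and Prp40 for Sf3b2. Such overlap with a gene on the other strand was also annotated for 12 of the 30 genes at or under 5%, SmD3 among them (37.5% of its exonic bases, 3.17% opposite-strand reads). The share of all expressed genes with such overlap was not calculated, and whether overlap goes with opposite-strand reads was not tested. No annotated exon lies opposite those of Prp38. Its closest divergent neighbour, shrb, starts 42 bases away, and counting both strands gave 114% of its strand-matched counts.

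The last of these overlaps joins 2 spliceosome genes. Prp40 lies on the plus strand of chromosome 2L at 3023226 to 3026439 and Sf3b2 on the minus strand at 3026252 to 3029168, so that their 3′ ends share 188 bases. The first protein belongs to U1 and the other to U2. In counts without strand, a read pair on exons of both genes is dropped, while opposite-strand reads elsewhere on a gene are added. Prp40 kept 94.1% of its strand-matched counts, while Sf3b2 had 102%. The loss was larger at SmD3 (69.9%), where the antisense asRNA:CR46194 covers 37.5% of the exonic bases, and at LSm7 (60.7%), where ChLD3 covers 40.7%. Prp19 and Cdc5 kept 85.3% and 84.0%. The other 32 genes kept at least 96.8%.

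The replicates were close for most of the genes. The median absolute difference was 0.030 on the log2 scale over the 37 genes and 0.045 over expressed protein-coding genes. More than 0.1 apart were 4 of the 37 genes, against 23.4% of expressed genes. These sets differ in depth. The smallest counts among the 37 were 548 in replicate 1 and 518 in replicate 2. A count of 10 was enough for a gene to be called expressed, and counting error is larger at low counts. Whether the 37 genes differ less than expressed genes of similar counts was not tested. Sf3b5 differed most, with 856 counts against 703 and a log2 ratio of replicate 1 over replicate 2 of 0.21 (95% interval 0.06 to 0.35 from the exact Clopper-Pearson limits of the counts). The gene of snRNP-U1-C was higher in replicate 2, at −0.16 (−0.28 to −0.03), as was Sf3b2 at −0.12 (−0.20 to −0.04), while Prp38 was higher in replicate 1 at 0.11 (0.00022 to 0.22). Prp8, with the most counts, had an interval that just left out 0 (−0.06 to −0.00032) at a difference of only −0.03. Intervals that left out 0 were found for 5 of the 37 genes and for 10.1% of expressed genes. They cover counting error only, and the replicates of a single condition have no order, so the differences measure spread between libraries and nothing else.

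**Figure D5:**
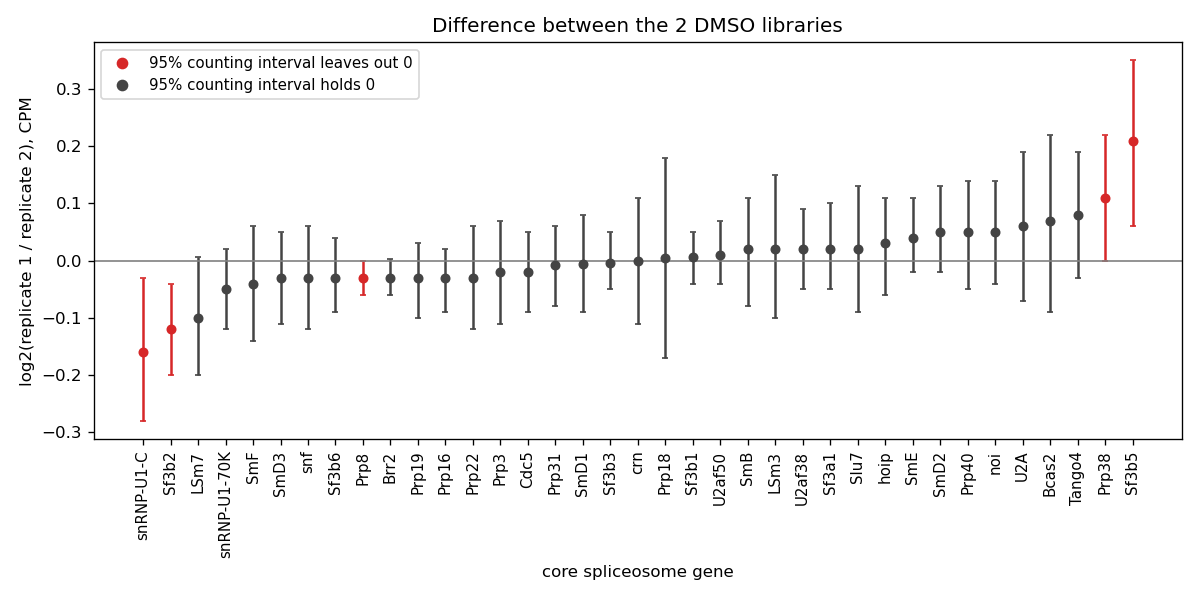
Log2 ratio of CPM in DMSO replicate 1 over replicate 2 for each core spliceosome gene, sorted, with 95% counting intervals; red marks the 5 genes whose interval leaves out 0. Sf3b5 (0.21) and snRNP-U1-C (−0.16) lie at the ends, and 33 genes lie within 0.1 of 0.

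In their annotation the 37 genes were compact. A single transcript was annotated for 67.6% of them, against 39.9% of expressed protein-coding genes, and the median number of introns was 1, against 3 over expressed genes. No intron at all was annotated for 8 genes (21.6%, against 8.73%): SmE, SmF, snRNP-U1-C, U2A, noi, Sf3b5, Prp38 and Prp18. The annotated transcripts of these subunits of the splicing machine therefore need no splicing themselves. At the other end, Prp8 and Sf3b3 have 13 introns each. A divergent neighbour that starts within 1000 bases was annotated for 30 genes (81.1%, against 47.9%), among them Rcd1 for Prp22 at 30 bases, SmE's neighbour CG34132 at 53 bases and RpL4, a ribosomal protein gene, for Bcas2 at 465 bases. These shares were not tested. The genes lie on every large chromosome arm, with 9 on 2L, 7 on 2R, 7 on 3L, 9 on 3R and 5 on X. On 2R, Prp8, SmD3 and SmF follow each other with 5732 and 13840 bases between them.

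Of 40 other spliceosome genes listed beside the 37, 29 were matched to the table by symbol or synonym and 27 were detected. The median over the 29, with undetected genes counted as 0, was 66.0 TPM. With the unshared length, which leaves the undetected genes out, the median was 67.9 TPM. Highest by mean level were SmG, the remaining Sm gene (361 and 351 TPM in replicates 1 and 2), Hel25E, the helicase that loads U2 and exports mRNA (257 and 257 TPM), and Sart1, a tri-snRNP protein (112 and 116 TPM). The libraries of Sart1 overlapped those of Bud31 (114 and 112 TPM) and Dhx15 (111 and 113 TPM), so its place above them is not certain. With SmG, all 7 genes of the Sm ring had at least 146 TPM in each library. Lowest above 0 were sip1, an intron release factor (10.9 and 11.4 TPM), Txnl4a, the Dim1 protein of U5 (21.1 and 22.9 TPM), and U4-U6-60K (27.0 and 27.5 TPM). Eftud2, the GTPase that binds Prp8 in U5, had 49.2 and 51.7 TPM, below both Prp8 and Brr2.

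LSm4 and Prp17 were the 2 matched genes with 0 counts, in every strand column of both libraries. These zeros cannot be read as missing expression. All exonic bases of LSm4 are shared with CG17768 (2L, 10403197 to 10405203) and all those of Prp17 with CG45099 (3R, 22032150 to 22034286), on the same strand. The sharing is mutual, and CG17768 and CG45099 had 0 counts too. Across the table, 319 protein-coding genes lay wholly within exons of other genes on the same strand, and 13564 did not. Of the latter, 16.6% had 0 counts in both libraries. All 319 had 0 counts, which the counting rule fixes in advance for a gene with no exonic base of its own. Levels of these genes cannot be had from the deposited counts.

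Levels of regulators of splicing were looked up beside the core. The 9 SR protein genes, whose products bind exons and recruit U1 and U2AF, had a median of 93.5 TPM and ran from Rsf1 (36.2 TPM) to B52 (208 TPM), a 5.75-fold range. The 11 hnRNP genes, whose products coat nascent RNA, had a median of 197 TPM. They ran from heph (11.4 TPM) to Hrb98DE (907 TPM), a 79.4-fold range beside the 17.7-fold range of the core genes. No core gene reached the level of Hrb98DE, sqd (721 TPM) or Hrb27C (449.7 TPM), but this turns with deposited TPM, where SmE had 674 TPM and these genes 332, 594 and 196 TPM.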

How the data were processed

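The 2 DMSO libraries of Kc167 cells were prepared strand-specifically after poly(A) selection. Per the study's methods and notes, read pairs were aligned to dm6 with STAR 2.7.1a. The authors deposited raw counts per gene, for either strand and for each strand alone, together with a series table that holds the strand-matched counts, a length per gene, TPM and the authors' mean TPM. The deposited TPM uses a length that equals the sum over all transcripts for 17515 of the 17710 annotated genes. It had 0 value columns that belonged to no sample. The binding and start-site data of the study were not used here.

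The strand-matched counts were used. Rows that name no gene, 21.6% and 21.0% of read pairs in replicates 1 and 2, were left out of library sizes. TPM was recalculated with each exonic base counted once, from Ensembl release 115 (BDGP6.54, dm6 coordinates). Expressed means at least 10 counts in each library. The members and all lists were chosen with earlier results of these data known. All members could be named, and of other spliceosome genes the 3 highest, the 3 lowest and those under 10 counts, with members over 5% on the opposite strand. Eftud2, Bud31, Bx42, Dhx15, sqd, Hrb27C and the neighbours of Prp22, SmE and Bcas2 were named after their values were seen.

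Alternatives were the deposited TPM, the longest transcript as length, unstranded counts, CPM, other count minimums, scaling by TMM (edgeR 4.0.16) or size factors (DESeq2 1.42.0) in R 4.3.3, and leaving out each replicate. The length without bases shared on the same strand, used for genes with at least 100 such bases, was added after seeing the data. Other steps used Python 3.11.15, pandas 2.3.3, scipy 1.17.1 and matplotlib 3.10.9. Ratios and intervals were tested on simulated data. A planned motif search of promoters was not run, since no sequence was used here.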

Additional observations from a re-analysis of the deposited data

How the results depend on the processing

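With deposited TPM the median over the 37 genes was 98.0 TPM in place of 100.2, and the sub-complex medians were 331 (Sm), 86.3 (LSm), 106 (U1), 93.3 (U2AF), 97.5 (U2), 176 (tri-snRNP), 61.9 (Prp19 complex) and 57.1 TPM (catalytic-step factors), with 58.2 for SR and 125 for hnRNP genes. With the longest transcript as length they were 96.2 over all, 203 (Sm), 153 (U2AF), 79.1 (U2), 116 (tri-snRNP), 49.0 (Prp19 complex), 34.9 (catalytic), 94.9 (SR) and 189 (hnRNP). Unstranded counts gave 96.8 over all, 206 (Sm), 90.2 (LSm), 155 (U2AF), 83.6 (U2), 45.4 (Prp19 complex), 37.5 (catalytic), 95.4 (SR) and 201 (hnRNP). CPM, another unit, gave medians of 74.3 (Sm), 40.2 (LSm), 57.3 (U1), 129 (U2AF), 90.3 (U2), 87.1 (tri-snRNP), 44.4 (Prp19 complex) and 50 (catalytic). The unshared length, added after seeing the data, gave 108 over all, 133 (LSm), 151 (U2AF), 91.1 (U2) and 36.2 (catalytic). In CPM the median over the 37 genes was 69.8, and that of the hnRNP genes was 240.0. With the unshared length the SR median was 92.9 TPM. The rank correlation of level and coding length was −0.523 with deposited TPM, −0.506 with unstranded counts and −0.529 to −0.524 with either replicate left out. Of the 37 single levels, deposited TPM moved 37 by more than their SD, the longest transcript moved 31, unstranded counts moved 26 and the unshared length moved 9. Leaving out 1 of 2 replicates cannot move a mean by more than their SD, so it says nothing about stability. All 37 genes stayed detected under each minimum and with unstranded counts, 33 to 37 lay above the median of expressed genes, and 4 were over 0.1 apart under each scaling tried. Shares over all genes were not calculated for the other minimums.

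No paired analysis was possible because there is only 1 condition. The planned search for promoter motifs was not run, since it needs sequence not used here. With 2 libraries an SD is poorly known, and a shift beyond it can be small. Near-identical gene copies lose read pairs placed at several sites, 11.2% and 10.8% of the libraries, and poly(A) selection leaves snRNAs unmeasured.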

Other observations

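Genes that build snRNPs were looked up in a list written after the data were seen. The SMN complex and its partners place the Sm ring on snRNA in the cytoplasm. Of 10 such genes 9 were detected. The median was 60.8 TPM with the undetected Tgs1 counted as 0, and 63.3 TPM with the unshared length, which leaves Tgs1 out. Both medians were below that of the Sm genes whose products these proteins handle (211 TPM, or 209.8 TPM with the unshared length). Highest were vls of the methylosome, which modifies Sm tails, with 86.6 TPM in each library, rig (Gemin5, which recognises snRNA) with 79.1 and 81.4 TPM and csul, the methylosome enzyme, with 80.0 and 79.7 TPM. Smn had 59.5 and 56.4 TPM and Gem2 had 68.8 and 72.5 TPM, while Gem3, a helicase of the complex, had 19.2 and 19.3 TPM. The level of Gem4a (listed as Glos, 7.21 and 7.33 TPM) and Gem4b (1.19 and 0.760 TPM) is uncertain, since they are near-identical copies. Tgs1, which adds methyl groups to the snRNA cap, was listed at 0 and shares all its exonic bases with moi, a gene on the same strand that was also at 0. In the U7 snRNP, which matures histone mRNA, SmD1 and SmD2 are replaced by Lsm10 (25.5 and 27.8 TPM) and Lsm11 (13.4 and 14.6 TPM), both below SmD1 (186 TPM) and SmD2 (223 TPM). The gene of coilin, coil, which marks Cajal bodies, had 53.0 and 53.5 TPM.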
